A study of Homo sapiens with 12 samples.

Results

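The genes of 5 abundant nucleolar proteins, NCL, NPM1, FBL, NOP56 and NOP58, were examined for RNA stretches that protein shields from nucleases. A site belonged to a gene when it lay on the gene's strand and its midpoint fell within the gene's hg19 span. By this rule the 5 genes held 451 of the 513381 sites in 6 deposited replicate lists. The cells were HEK293T, an established human embryonic kidney line, cross-linked in all groups alike with 1% formaldehyde (10 minutes, stopped by glycine at 125 mM). The assay, protein interaction profile sequencing (PIP-seq), has 4 groups of 3 libraries each. In the ssRNase footprint group the lysate was digested by RNase ONE, an enzyme that cuts unpaired RNA. In the dsRNase footprint group it was digested with RNase V1, which cuts paired RNA. Each nuclease has a digestion control group, in which protein was removed before the nuclease was added. Each list belongs, per the labels, to 1 footprint library and the like-numbered control with that nuclease. The labels do not state whether the replicates were separate cultures. The p-values therefore measure only the spread between these lists, which may be technical. The files hold no expression values, so the identity of the cells was not checked here.

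The nucleolus is where ribosomal RNA is made, trimmed, chemically modified and joined with ribosomal proteins. Fibrillarin (FBL), NOP56 and NOP58 are core proteins of the box C/D small nucleolar ribonucleoproteins, in which a guide RNA directs FBL, the methyltransferase, to ribosomal RNA. Nucleolin (NCL) binds RNA and takes part in ribosomal RNA transcription and early processing, and nucleophosmin (NPM1) is a histone and ribosome assembly chaperone. Many small nucleolar RNAs (snoRNAs) are themselves cut from introns of genes for nucleolar and translation proteins.

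Several of the examined genes are such hosts. GENCODE release 29, an annotation of the later build GRCh38, places 3 snoRNA genes inside NCL, 5 inside NOP56 and 4 inside NOP58 on the same strand, and 0 inside NPM1 or FBL. The 9 of them named as box C/D snoRNAs (SNORD) are shown because their C and D boxes are what FBL, NOP56 and NOP58 assemble on. The sequences are GENCODE transcripts, written as DNA, 5′ to 3′. Capitals mark TGATGA when it lies within the first 15 bases (C box) and CTGA when it lies within the last 15 bases (D box), both searched on the transcript strand only.
SNORD20 in NCL: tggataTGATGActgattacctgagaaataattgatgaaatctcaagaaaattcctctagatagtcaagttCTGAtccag
SNORD82 in NCL: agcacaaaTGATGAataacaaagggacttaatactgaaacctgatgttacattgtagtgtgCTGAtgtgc
SNORD110 in NOP56: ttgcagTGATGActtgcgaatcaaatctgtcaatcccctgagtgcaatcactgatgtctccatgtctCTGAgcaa
SNORD56 in NOP56: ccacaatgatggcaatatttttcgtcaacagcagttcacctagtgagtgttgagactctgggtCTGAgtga
SNORD57 in NOP56: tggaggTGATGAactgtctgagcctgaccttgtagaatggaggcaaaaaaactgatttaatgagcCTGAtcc
SNORD86 in NOP56: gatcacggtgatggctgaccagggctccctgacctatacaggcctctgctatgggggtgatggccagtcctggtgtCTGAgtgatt
SNORD11 in NOP58: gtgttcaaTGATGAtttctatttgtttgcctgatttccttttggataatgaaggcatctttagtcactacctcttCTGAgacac
SNORD11B in NOP58: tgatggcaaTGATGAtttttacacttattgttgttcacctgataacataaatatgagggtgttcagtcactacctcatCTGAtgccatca
SNORD70 in NOP58: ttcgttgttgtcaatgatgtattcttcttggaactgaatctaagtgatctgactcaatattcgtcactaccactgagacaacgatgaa
Both boxes were found at these places in 6 of the 9, and in 21.0% of all 955 snoRNA transcripts of the release, which include other snoRNA classes. The lists are in hg19 and positions were not converted, so which site lies over a snoRNA, an exon or an intron was not analysed here, and no sequence of a site is shown.

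The lists differed in length. There were 209922, 57481 and 172079 sites in the ssRNase lists, against 23925, 28413 and 21561 in the dsRNase lists, and the depth behind them is unknown because no read counts are given. Of ssRNase site bases 54.8% to 60.9% were on the minus strand, against 64.5% to 78.5% of dsRNase site bases. Values are therefore given as protected bases, as a percentage of the gene span, and as the number of site bases among every 1000000 in that list, called the protected share. Fewer RNA molecules and less protein on each of them cannot be told apart in these values.

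Protected dsRNase bases lay along the whole NCL span, with more of them toward the 3′ end. With the span cut into 10 equal parts from its 5′ end, parts 9 and 10 held 26.1% ± 4.59 and 18.2% ± 5.40 of them (SD, n = 3 each). Parts 1 to 4 held means of 2.82% to 5.72% each. The span (chromosome 2, 232319459 to 232329205, minus strand, 9747 nt) held 776, 1013 and 1146 protected bases in the 3 dsRNase lists, in 21, 29 and 25 sites. The ssRNase lists held 1370, 260 and 568 bases in 25, 5 and 15 sites. In number of bases the dsRNase lists were thus alike and the ssRNase lists differed widely, with overlapping groups. The ssRNase lists also differed more in length than the dsRNase lists did. The mean number of NCL sites was 15.0 ± 10.0 (SD, n = 3) in the ssRNase lists, although these lists were longer, and 25.0 ± 4.0 (SD, n = 3) in the dsRNase lists. By a two-sided exact permutation test this difference did not pass (p = 0.3). A higher mean number with dsRNase occurred in 2.55% of all 31426 features tested and in 5.36% of the 4479 features with sites in all 6 lists. A feature is a member gene or a stranded window of 10000 bp.

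NPM1 and NOP58 held more protected bases in the 2 long ssRNase lists than in any dsRNase list. NPM1 (chromosome 5, 170814708 to 170837888, plus strand, 23181 nt) held 1480, 240 and 1042 bases with ssRNase and 272, 470 and 337 with dsRNase. Its ssRNase replicate 2 lay below all 3 dsRNase lists. NOP58 (chromosome 2, 203130515 to 203168389, plus strand, 37875 nt) held 1288, 173 and 649 bases with ssRNase and 308, 256 and 389 with dsRNase. All dsRNase lists had 7 sites in NOP58, against 31, 4 and 16 with ssRNase. In both genes the groups overlapped, and the numbers of sites did not differ beyond the spread (two-sided exact permutation p = 0.4 for each).

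FBL, the methyltransferase gene (chromosome 19, 40325094 to 40337054, minus strand, 11961 nt), was the member with the fewest ssRNase sites on average. It held 582, 152 and 434 bases with ssRNase and 300, 350 and 357 with dsRNase, in 11, 5 and 11 and in 9, 9 and 7 sites. The groups overlapped (two-sided exact permutation p = 1 for the number of sites). With the span cut into 10 equal parts from its 5′ end, parts 2, 3 and 4 held 0 protected bases in every ssRNase list, and parts 3 and 4 held 0 in every dsRNase list.

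NOP56 was the most densely protected of the 5 with ssRNase. Its span (chromosome 20, 2633170 to 2639040, plus strand, 5871 nt) was protected over 43.6%, 13.0% and 31.3% of its length in the ssRNase lists and over 4.38%, 8.36% and 7.66% in the dsRNase lists. The ssRNase lists all lay above the dsRNase lists. The exact permutation p was 0.1 (two-sided), and with 3 lists on each side no smaller value is possible. In protected bases 57.4% of features with sites in all 6 lists, and 67.9% of all features, were separated in this way. The numbers of sites did not overlap either, with 39, 17 and 33 against 5, 13 and 9. Such a separation in number of sites was seen in 36.7% of features with sites in all 6 lists and in 54.5% of all 31426 features tested. Per length, the mean ssRNase coverage was 29.3% ± 15.4 in NOP56, 7.52% ± 5.88 in NCL, 3.97% ± 2.71 in NPM1, 3.26% ± 1.83 in FBL and 1.86% ± 1.48 in NOP58 (SD, n = 3 each). With dsRNase the order was NCL at 10.0% ± 1.92, NOP56 at 6.80% ± 2.13, FBL at 2.81% ± 0.260, NPM1 at 1.55% ± 0.435 and NOP58 at 0.839% ± 0.177 (SD, n = 3 each). The ssRNase ranges of NCL, NPM1, FBL and NOP58 overlap one another, and that of NOP56 overlaps the range of NCL, although NOP56 was higher than NCL within each ssRNase list. With dsRNase, only NCL and NOP56 overlap as neighbours in the order. The spans include introns, so long introns lower these percentages.

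**Figure D1:**
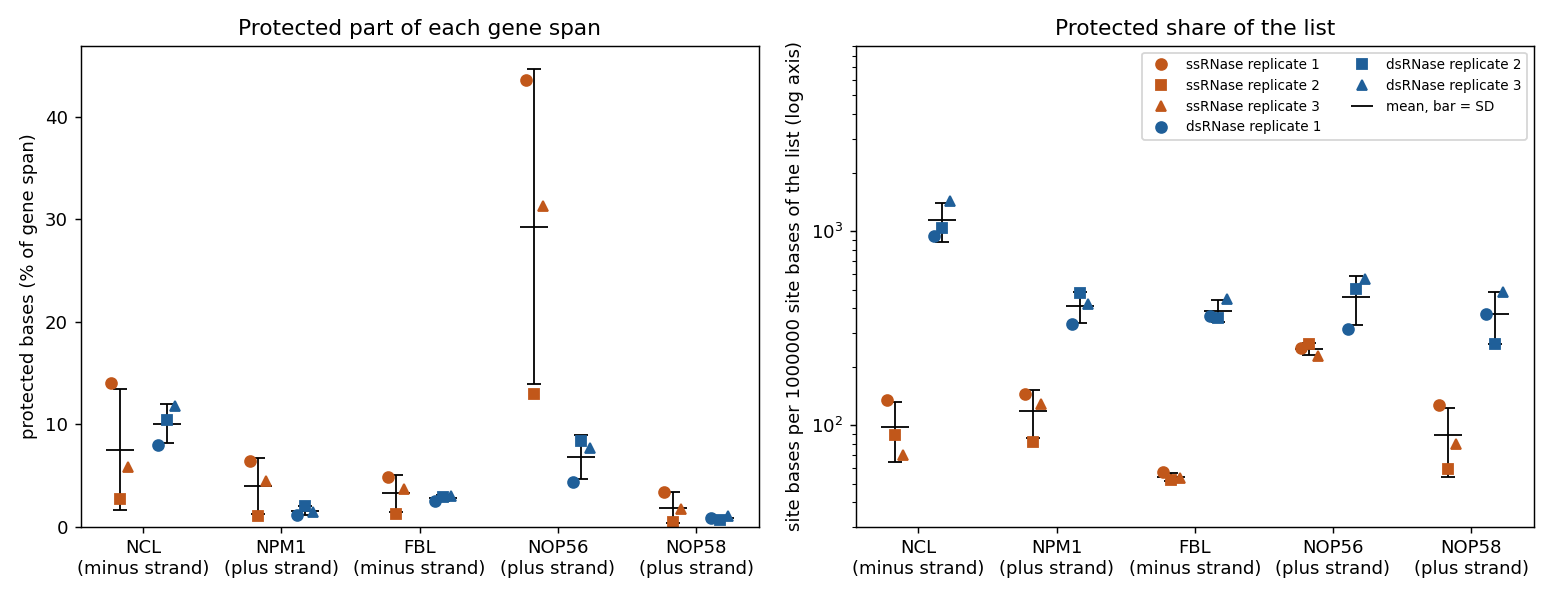
Protected part of each gene span in percent (left) and protected share (site bases per 1000000 in the list) on a log axis (right), with 1 point per list, the mean and an SD bar. NOP56 stands out with ssRNase on the left, and on the right every dsRNase list lies above every ssRNase list in each of the 5 genes.

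Relative to the length of the lists, 4 of the 5 genes had a higher protected share with dsRNase. The comparison was made with limma, with Benjamini-Hochberg adjustment over all 31426 features, on log2(site bases per 1000000 site bases + 20), a scale that understates changes of low features. At an adjusted p of 0.05, 7.04% of all features and 39.0% of those with sites in all 6 lists, as the members have, were higher with dsRNase. All 5 members had every dsRNase list above every ssRNase list, which held for 9.56% of all features and 47.5% of those with sites in all 6 lists. The median difference of the 5, ssRNase minus dsRNase, was -1.87, against 0.43 over all features and -0.69 over those with sites in all 6 lists.

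The largest difference among the 5 was that of NCL. Its protected share was 942.4, 1035 and 1434 bases per 1000000 in the dsRNase lists and 134.4, 89.2 and 70.1 in the ssRNase lists. The mean share of NCL was 97.9 ± 33.0 (SD, n = 3) in the ssRNase lists and 1137 ± 262 (SD, n = 3) in the dsRNase lists, 11.6 times as high. The difference was -3.31 on the log2 scale (SE 0.281, limma adjusted p = 0.00444), or -2.62 relative to the median of features with sites in all 6 lists. Only 0.558% of those 4479 features lay further toward dsRNase.

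FBL, on the same strand, followed in this fit. Its share was 364.3, 357.5 and 446.8 with dsRNase and 57.1, 52.1 and 53.6 with ssRNase, and the ssRNase lists nearly coincided. The difference was -2.46 (SE 0.169, limma adjusted p = 0.00444), or -1.77 relative to the median of features with sites in all 6 lists. Both genes are on the minus strand, which takes a larger part of the dsRNase lists, and 9.36% of minus-strand features were higher with dsRNase, against 3.88% of plus-strand ones. With shares computed within each strand the differences were somewhat smaller, at -3.10 for NCL and -2.29 for FBL (limma adjusted p = 0.00364 and 0.00313), while the median over all features moved from 0.43 to 0.72.

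NOP58 and NPM1 were also higher with dsRNase. NOP58 had shares of 374.0, 261.5 and 486.9 with dsRNase and 126.4, 59.3 and 80.1 with ssRNase. The difference was -1.87 (SE 0.329, limma adjusted p = 0.0124), and the groups did not overlap. NPM1 had shares of 330.3, 480.0 and 421.8 with dsRNase and 145.2, 82.3 and 128.6 with ssRNase, a difference of -1.65 (SE 0.259, limma adjusted p = 0.0097). Of features with sites in all 6 lists, 8.37% lay further toward dsRNase than NOP58 and 12.9% further than NPM1. With shares computed within each strand, NOP58 was at -2.63 and NPM1 at -2.38 (limma adjusted p = 0.00806 and 0.00364). Both then lay further toward dsRNase than FBL at -2.29, so the order of the genes depends on this scaling. NOP58 missed the threshold when all lists were thinned to one size (-2.22, limma adjusted p = 0.179), and NPM1 when only features with sites of both nucleases were tested (-1.65, limma adjusted p = 0.0761).

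NOP56 did not pass the test. Its share was 312.1, 501.5 and 563.3 with dsRNase and 251.2, 261.4 and 226.6 with ssRNase. The groups did not overlap, but the difference of -0.81 (SE 0.257) had a limma adjusted p of 0.0581. Relative to the median of features with sites in all 6 lists it was -0.12, and 43.3% of those features lay further toward dsRNase. The gene passed with shares computed within each strand (-1.47, limma adjusted p = 0.0104), with the better-scoring 50% of sites (-1.04, limma adjusted p = 0.0328) and without dsRNase replicate 1 (-1.05, limma adjusted p = 0.0298). In all other settings it missed the threshold. Among these were equal numbers of sites (-1.09, limma adjusted p = 0.226) and only features with sites of both nucleases (-0.81, limma adjusted p = 0.515). With shares computed within each strand, the other plus-strand members, NOP58 and NPM1, moved toward dsRNase as well. The shift of other plus-strand features in that setting is not given, so the move is not shown to be particular to these genes.

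The division of protected bases among the 5 genes needs no scaling between lists, and it was computed after the values had been seen. NCL took 40.6%, 39.3% and 42.8% of the 5 genes' bases in the dsRNase lists and 18.8%, 16.4% and 12.5% in the ssRNase lists. For NOP56 the order was the opposite, with 13.4%, 19.0% and 16.8% with dsRNase and 35.2%, 48.0% and 40.5% with ssRNase. FBL took 9.05% ± 0.916 (SD, n = 3) of the ssRNase bases and 14.2% ± 1.30 (SD, n = 3) of the dsRNase bases. For NCL, NOP56 and FBL the two-sided exact permutation p was 0.1, the smallest possible, and how often other sets of 5 genes divide in this way was not computed. NPM1 took 19.5% ± 4.01 (SD, n = 3) of the ssRNase bases and 15.0% ± 2.90 (SD, n = 3) of the dsRNase bases, with overlapping groups (two-sided exact permutation p = 0.2). NOP58, at 14.3% ± 3.39 (SD, n = 3) of the ssRNase bases and 13.5% ± 3.21 (SD, n = 3) of the dsRNase bases, differed by less than its spread (two-sided exact permutation p = 0.8). For every NOP56 base, NCL had 3.02, 2.06 and 2.55 bases with dsRNase and 0.535, 0.341 and 0.309 with ssRNase. These 2 genes are on opposite strands, and among all pairs of features with sites in all 6 lists 39.9% had ratios that did not overlap between nucleases. Within the minus strand, NCL had 2.59, 2.89 and 3.21 bases per FBL base with dsRNase and 2.35, 1.71 and 1.31 with ssRNase. Within the plus strand, NPM1 had 1.06, 0.957 and 0.749 bases per NOP56 base with dsRNase and 0.578, 0.315 and 0.568 with ssRNase. NOP58 had 1.20, 0.521 and 0.864 bases per NOP56 base with dsRNase and 0.503, 0.227 and 0.353 with ssRNase. These 3 ratios did not overlap between nucleases (two-sided exact permutation p = 0.1 for each). The remaining pair within the plus strand overlapped, NPM1 having 0.883, 1.84 and 0.866 bases per NOP58 base with dsRNase and 1.15, 1.39 and 1.61 with ssRNase (two-sided exact permutation p = 0.6). Of all same-strand pairs of features with sites in all 6 lists, 40.2% did not overlap.

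**Figure D2:**
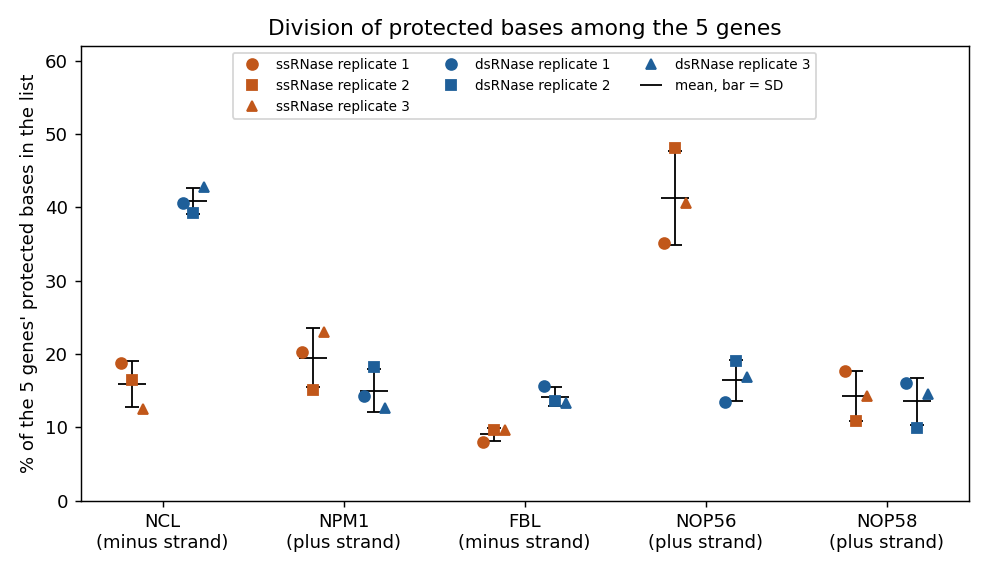
Percentage of the 5 genes' protected bases that each gene took in each list, with the mean and an SD bar. NCL lies between 39.3% and 42.8% in the dsRNase lists and at 18.8% or less in the ssRNase lists, and NOP56 lies at 35.2% or more in the ssRNase lists and at 19.0% or less in the dsRNase lists.

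Sites in these genes recurred between lists, which is given as a description because the pairs share lists. Of the member sites of the dsRNase lists, 82.0%, 73.0% and 80.0% overlapped a site of another dsRNase list by at least 1 nt, against 51.4%, 47.9% and 54.9% of all sites of those lists. For ssRNase the values were 50.7%, 94.4% and 72.4% in the members and 52.8%, 89.9% and 62.2% over the whole lists. Of the ssRNase member sites 46.4%, 61.1% and 44.9% overlapped a dsRNase site, against 15.1%, 23.2% and 15.4% of all ssRNase sites. In the other direction 76.0%, 71.6% and 80.0% of dsRNase member sites overlapped an ssRNase site, close to the 73.9% to 76.6% of the whole lists. In NOP56 each of the 5, 13 and 9 dsRNase sites overlapped an ssRNase site, while in NCL and NPM1 the mean over lists was 65.1% and 65.5%. Of ssRNase sites, NPM1 had the lowest mean overlapping a dsRNase site, 28.1% (10 of 32, 2 of 5 and 3 of 23), and NCL the highest, 82.7%. The genes differ in how densely sites cover them. Sites of any ssRNase list covered 3029 of 5871 nt in NOP56, 1475 of 9747 in NCL and 2053 of 23181 in NPM1. Those of any dsRNase list covered 1769 nt in NCL and 630 nt in NPM1. How much overlap such densities alone would give was not tested.

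Single sites were short. They had a median of 38.0 nt with dsRNase (179 sites, 4 to 111 nt) and 43.5 nt with ssRNase (272 sites, 2 to 242 nt). Sites of the whole lists were short as well, with medians of 33, 33 and 34 nt with dsRNase and 43, 44 and 42 nt with ssRNase. Under 20 nt were 32 dsRNase sites (17.9%) and 17 ssRNase sites (6.25%). The longest lay in NOP56 in ssRNase replicate 1, from 2637462 to 2637703 (242 nt), and overlapped sites of all 5 other lists. The longest in NCL, from 232320141 to 232320308 (168 nt), came from the same list, as did the next longest in NOP56, from 2637727 to 2637908 (182 nt), and in NCL, from 232327911 to 232328027 (117 nt). In NOP58 the longest sites were 84 nt each, from 203149145 to 203149228 in ssRNase replicate 3 and from 203149148 to 203149231 in ssRNase replicate 1. NPM1 had sites of up to 94 nt (ssRNase replicate 3) and 85 nt (dsRNase replicate 3), and FBL sites of 87 nt (ssRNase replicate 1) and 80 nt (ssRNase replicate 3). Of the ssRNase sites 78 overlapped no site of any other list, and of the dsRNase sites 13. Whole-list shares are not given for these counts or for sites under 20 nt. The opposite strand of the 5 spans held 4 sites in all 6 lists together.

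**Figure D3:**
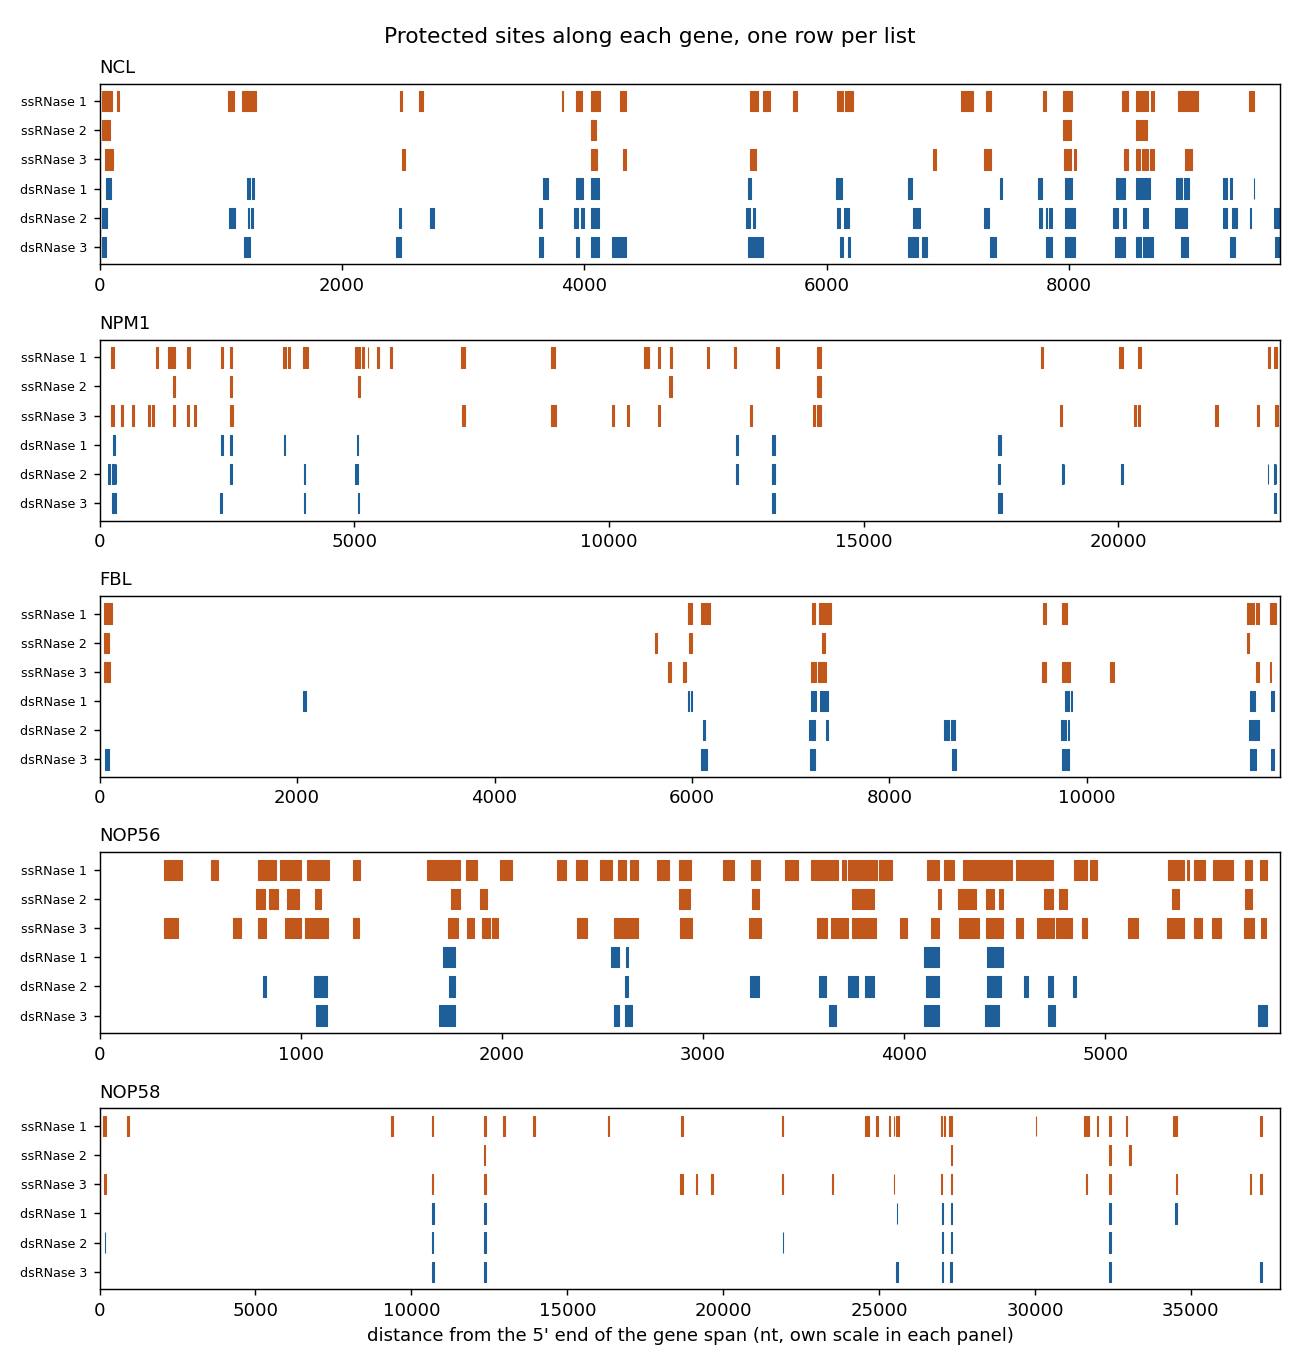
Protected sites along each gene, as distance from the 5′ end of the span in nt, with 1 row per list and bars drawn to site length (the scale differs between panels). Sites of NCL recur at many places with dsRNase, NOP56 is densely covered with ssRNase, and NOP58 has 7 sites in each dsRNase list at mostly recurring places.

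Base by base, 267 bases in 11 stretches were protected in all 6 lists, in NCL (125 bases), NOP58 (91) and NOP56 (51). NPM1 and FBL had 0 such bases. Protected in all 3 lists of a nuclease were 1155 bases with ssRNase and 871 with dsRNase. With 1 list left out only 2 lists had to share a base, so these totals could not fall. The ssRNase total was 1243, 3112 and 1374 without replicates 1, 2 and 3. The dsRNase total was 1433, 1220 and 1152 without replicates 1, 2 and 3. NOP56 held 586 of the 1155 ssRNase bases, and in 339 of these no dsRNase list had a site. The 586 became 1407 without ssRNase replicate 2 and 192 with the better-scoring 50% of sites. In NPM1 most bases protected in all lists of one nuclease lay outside the other nuclease's sites, 113 of 148 with ssRNase and 104 of 129 with dsRNase. Shares over all features are not given for these counts or for the 339 bases of NOP56. Over the whole lists 15.1% to 23.2% of ssRNase sites overlapped a dsRNase site. In the other direction it was 73.9% to 76.6% of dsRNase sites. In the authors' merged list over both nucleases, some sites were fed by all 6 replicate lists. They numbered 4 of 40 in NCL, 3 of 39 in NOP56 and 3 of 35 in NOP58. FBL had 1 of 17 and NPM1 0 of 51. The share among all 293016 merged sites is not given here. Nor is a share over other features given for the bases protected in all 6 lists.

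NCL held the longest stretch that all 3 dsRNase lists shared in any of the 5 genes, 70 nt from 232325081 to 232325150. The dsRNase sites there were 71, 70 and 70 nt long and their edges differed by at most 1 nt. The ssRNase sites were 79, 46 and 51 nt long and lay at the same place. By the authors' score the dsRNase sites ranked at the 99.6, 99.6 and 99.5 percentile of their lists. The longest stretch shared by all 6 lists, 47 nt from 232321189 to 232321235, was also in NCL. Its ssRNase sites of 70, 68 and 60 nt and dsRNase sites of 56, 84 and 81 nt ranked between the 99.5 and 99.9 percentile of their lists. Toward the 3′ end of NCL, bases from 232320561 to 232320591 were protected in all 6 lists as well. Stretches found with only 1 nuclease were short in NCL, at most 18 nt with dsRNase, from 232323837 to 232323854, and 10 nt with ssRNase, from 232321239 to 232321248.

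NOP58 and NOP56 had their own recurring stretches. In NOP58 the bases from 203142851 to 203142891 (41 nt) were protected in all 6 lists, by ssRNase sites of 60, 41 and 46 nt and dsRNase sites of 58, 63 and 58 nt. Another stretch, from 203162904 to 203162939 (36 nt), was also found in all 6. In NOP58 the 39 nt from 203157534 to 203157572 were protected in all dsRNase lists and in no ssRNase list. Directly upstream, sites of ssRNase replicates 1 and 3 both ran from 203157500 to 203157533, the base before that stretch. The dsRNase sites of replicates 1 and 3 began at 203157533 and 203157532 and so overlapped these ssRNase sites. The dsRNase sites over the 39 nt ranked at the 34.4, 43.3 and 83.0 percentile of their lists. In NOP56 the longest stretch of all 6 lists was 31 nt, from 2637584 to 2637614. Just before it, the 67 nt from 2637462 to 2637528 were protected in all 3 ssRNase lists and in no dsRNase list. The ssRNase sites over these 67 nt ranked at the 98.9, 1.45 and 91.1 percentile of their lists. All NOP56 sites of ssRNase replicate 2 together had a median rank at the 11.1 percentile, against 64.5 and 69.5 in replicates 1 and 3.

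In NPM1 the longest stretch in all lists of each nuclease lay outside the sites of the other. A stretch of 70 nt, from 170828791 to 170828860, was protected in all ssRNase lists by sites of 84, 79 and 76 nt and in no dsRNase list. Conversely, 51 nt from 170827912 to 170827962 were protected in all dsRNase lists by sites of 53, 51 and 53 nt and in no ssRNase list, and so were 43 nt from 170832349 to 170832391. Another NPM1 stretch in all ssRNase lists, 44 nt from 170817264 to 170817307, was partly covered by sites of 2 dsRNase lists. Of the 10 equal parts of the NPM1 span, parts 4, 5 and 7 held 0 protected bases in the dsRNase lists and held 7.84% ± 7.22, 14.0% ± 7.02 and 16.9% ± 14.2 of the gene's ssRNase bases (SD, n = 3 each). Part 6 held 4.43% ± 4.92 of its ssRNase bases and 24.1% ± 9.12 of its dsRNase bases (SD, n = 3 each). FBL again had 0 bases in all 6 lists. A stretch near its 5′ end, from 40336960 to 40337005 (46 nt), was protected in all ssRNase lists, and a 36-nt site of dsRNase replicate 3, from 40336964 to 40336999, lay within it. In the same gene 45 nt from 40329808 to 40329852 were protected in all dsRNase lists, and sites of 2 ssRNase lists covered them in part. Bases of FBL protected in all lists of one nuclease and in no list of the other numbered 10 with ssRNase and 15 with dsRNase.

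**Figure D4:**
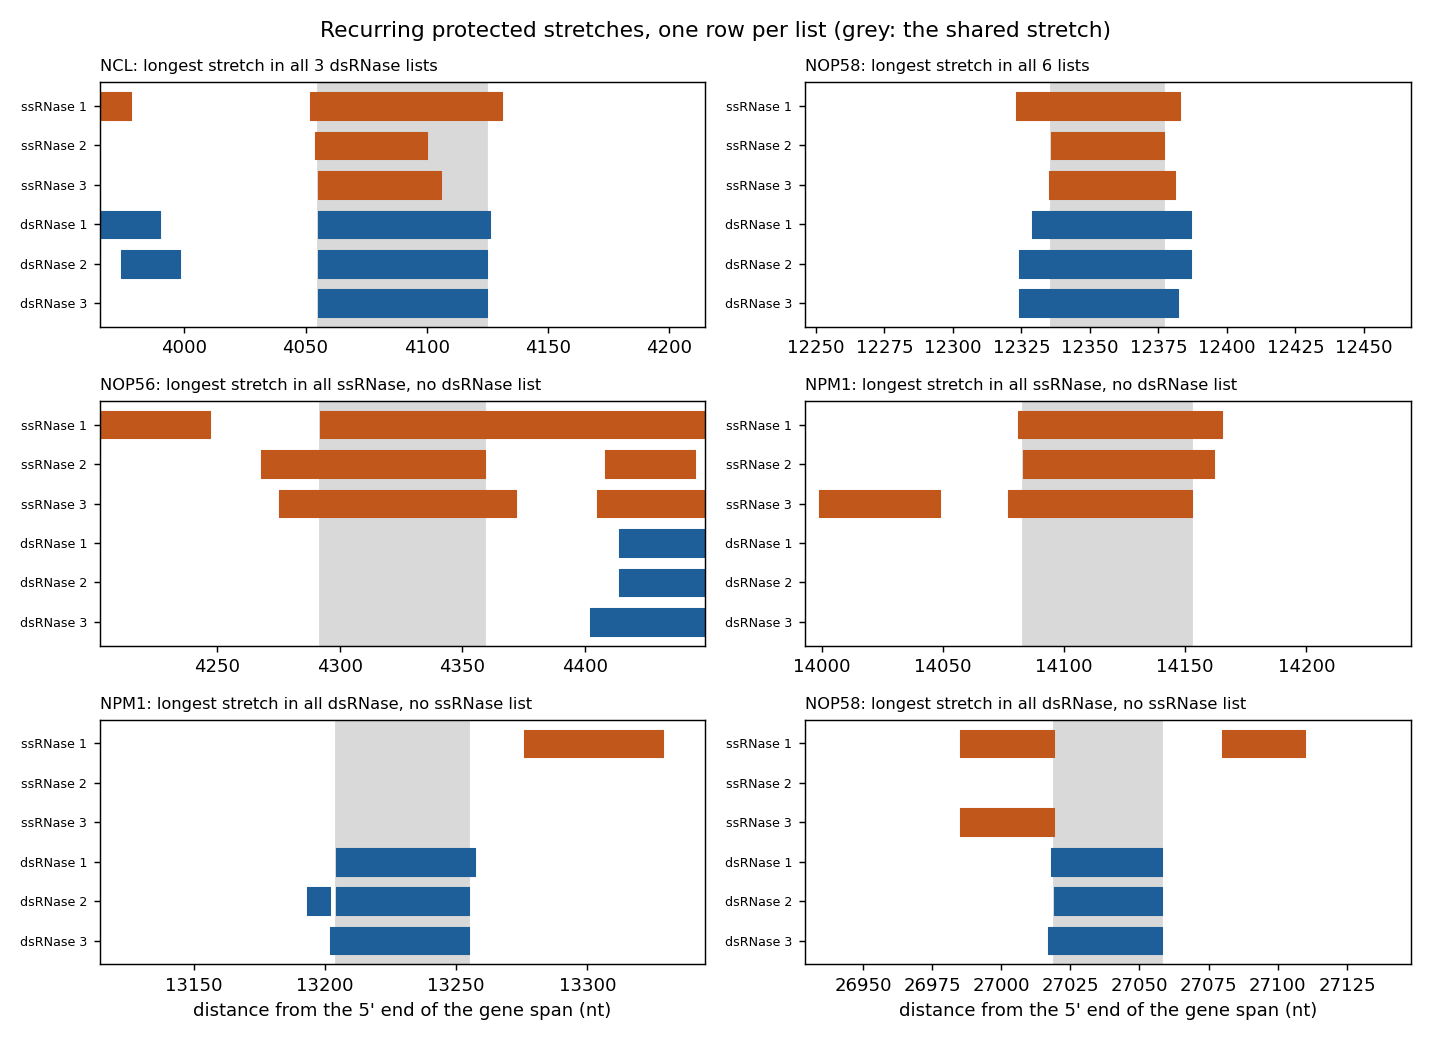
Sites of the 6 lists around recurring stretches in NCL, NOP58, NOP56 and NPM1, as distance from the 5′ end of the span in nt, with the shared stretch in grey. The NCL stretch of 70 nt has nearly the same edges in the 3 dsRNase lists, and the NPM1 stretches of 70 nt and 51 nt are each covered by the 3 lists of only 1 nuclease.

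Stranded windows with the pattern nearest to a member's over the 6 lists, by Euclidean distance on the log2 scale, lay elsewhere in the genome. For NCL the 2 nearest started at 8920001 on chromosome 1 (distance 0.58) and at 10820001 on chromosome 11 (0.69), both on the minus strand. For FBL they started at 174250001 on chromosome 4 (0.37) and at 1260001 on chromosome 17 (0.39), again on the minus strand. NPM1 was nearest to the windows starting at 153590001 on chromosome X, minus strand, and at 184040001 on chromosome 3, plus strand (0.63 each). NOP56 was nearest to those starting at 1320001 on chromosome 1 (0.52) and at 12810001 on chromosome 19 (0.60), both minus, and NOP58 to those starting at 52720001 on chromosome 3, plus, and at 40030001 on chromosome 1, minus (0.50 each). Genes at these windows were not assigned.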

How the data were processed

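The submitters' processing notes name cutadapt 0.9.5, TopHat2 2.0.9 and build hg19. The deposited lists carry CSAR, a peak caller, and a false discovery rate of 5% in their names, per the labels. A duplex-specific nuclease step evened out abundant molecules in the libraries, per the extract protocol of the labels. The deposited score per site has no stated scale and served here for ranks inside each list alone. How the authors filtered or scaled reads is not stated in the labels. Start and end were read as 1-based and inclusive.

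The members, lists and tests were chosen with earlier results of these data known. Named sites followed a written rule: the longest stretch per gene in all 6 lists or in all lists of 1 nuclease alone, and the longest sites. Further stretches and span parts were chosen after their values were seen. Each site went to a member span or to a stranded window of 10000 bp by its midpoint. Features with a site in at least 3 lists entered the moderated fit of limma 3.58.1 (R 4.3.3) with a pseudocount of 20, and other steps used Python 3.11.15. The fit was also run on simulated lists, which lacked the strand difference between the nucleases, and no conclusion is drawn from that run. Numbers of sites were compared by a two-sided exact permutation test. Nucleolar genes other than the members were not analysed here, as no annotation of build hg19 was used.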

Additional observations from a re-analysis of the deposited data

How the results depend on the processing

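The direction of the protected share difference held in all 80 alternative values of the 5 genes. Some of these could not turn. Settings that only changed which features were tested, or that added a replicate block, left each difference unchanged by construction. Without each list in turn it ranged from -3.52 to -3.13 for NCL, -1.79 to -1.44 for NPM1, -2.51 to -2.36 for FBL and -2.10 to -1.66 for NOP58, all with limma adjusted p of 0.0409 or lower. For NOP56 it ranged from -1.05 to -0.65. NOP56 passed at -1.47 with shares within strands and at -1.04 with the better-scoring 50%, and missed the threshold at -1.09 with equal numbers of sites. NOP58 missed the threshold at -2.22 with equal numbers of sites, and NPM1 at -1.65 among features with sites of both nucleases. With a replicate block in the limma fit 0 of the 5 genes passed, at unchanged differences of -3.31 for NCL, -1.65 for NPM1, -2.46 for FBL and -1.87 for NOP58 (adjusted p from 0.0514 to 0.0579). In that fit 0 of 31426 features passed, and 11362 had an unadjusted p below 0.05. Deviations of same-numbered lists from the mean of their nuclease had correlations of 0.0176, -0.0629 and -0.0336. Those of differently numbered lists ranged from -0.100 to 0.0925. With only 3 lists behind each mean, these values cannot decide whether equal numbers share a culture or day. The number of features called without the block, 8349 higher with ssRNase and 2211 with dsRNase, became 762 and 998 with equal numbers of sites and 131 and 621 among features with sites of both nucleases.

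Per 10000 sites of the list, the difference in number of sites turned to dsRNase, with -2.83 for NPM1, -2.71 for FBL, -1.37 for NOP56 and -1.84 for NOP58. That of FBL, 0.667 sites, was -1.67 with the better-scoring 50% and from -0.333 to 2.67 without single lists (0 without dsRNase replicate 3). In the division among the 5 genes, the NPM1 difference became -0.328 percentage points with the better-scoring 50%, and that of NOP58 ranged from -1.003 to 2.50 without single lists. With an overlap of 50% of the site, 37.3% of ssRNase member sites overlapped the other nuclease, and of dsRNase sites 72.0% recurred with the same and 67.8% with the other nuclease. With the better-scoring 50%, 83.6% of dsRNase sites recurred with dsRNase. Whole-list shares in these settings are not given, so these values do not show whether the members stood apart from the lists there. Bases in all lists became 622 (ssRNase) and 754 (dsRNase) with the better-scoring 50%, and 1243 to 3112 and 1152 to 1433 without single lists, where only a pair of lists had to share them. The cause of the other shifts was not tested. Depth is unknown and limits these lists in a way that was not measured.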
